A study of Bos taurus with 15 samples.

Results

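Endometrial forceps biopsies from 15 beef heifers (Bos taurus) were sorted by how much smooth muscle message they carried, and the 5 libraries richest in it were set beside the 5 poorest, whatever the fertility class of the animal. The sorting used a smooth muscle score, the mean of log2(CPM + 1) over 4 genes, DES, MYH11, ACTG2 and CNN1, where CPM is the count scaled to a library total of 1000000. The libraries were chosen by these measured values, and the 10 so selected are described here out of 15 in all, and the other 5 lie between them. Because the score is a measured value, every difference between rich and poor libraries is a description of libraries sorted on their own content, and no p-value is attached to it. The 4 genes of the score chose the libraries and are left out of every count of genes between rich and poor libraries and of every list. They remain among the genes of the class comparisons and among the values checked for single outlying libraries.

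The study measured polyadenylated RNA by stranded sequencing in 3 fertility classes of heifers, High-fertile, Sub-fertile and Infertile, with 5 heifers each. The labels do not say how heifers were placed in a class. All heifers had their estrus synchronised with hormones and received an embryo produced in vivo, placed on day 7 into the uterine horn beside the corpus luteum. The uterus was flushed on day 14 of pregnancy and the biopsy was then taken with forceps, so all 3 classes share synchronisation, transfer, flush and sampling. The rich libraries came from 3 High-fertile, 1 Sub-fertile and 1 Infertile heifer, and the poor libraries from 1 High-fertile, 2 Sub-fertile and 2 Infertile heifers.

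Smooth muscle cells contract when calcium, acting through calmodulin and myosin light chain kinase, lets smooth muscle myosin pull on thin filaments of smooth muscle actin. In the uterus these cells form the myometrium beneath the endometrium, and they also wrap the arteries that run through the endometrial stroma. Their contractile genes are switched on by serum response factor together with its coactivator myocardin. An endometrial biopsy holds luminal and glandular epithelium, stroma, vessels and immune cells in varying shares, and may reach the muscle below. In such bulk samples, fewer cells of a type and less RNA per cell cannot be told apart.

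The libraries held 38017136 to 62858724 counts, with 40542008 to 62858724 in the rich and 38017136 to 50146676 in the poor libraries. The levels of 372 pseudogene and ribosomal RNA genes divided the 15 libraries into 3 sets of 8, 5 and 2, and the labels name no batch. These genes took 1.11% and 1.23% of the counts in the set of 2 and 2.42% to 3.30% in the other 13. The rich libraries held 4 of the set of 8 and 1 of the set of 2, and the poor libraries 3 of the set of 8 and 2 of the set of 5. The sets were also uneven over the classes. No High-fertile library was in the set of 5. High-fertile replicate 1 was in the set of 2, and every other High-fertile library was in the set of 8. Class was thus partly tied to set, and a class difference given below cannot be fully told apart from a difference between sets. Results without some of these libraries are given beside the counts they bear on. The class comparisons were also fitted with the sets as a term.

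From richest down, the rich libraries were Infertile replicate 1 with a score of 11.30, High-fertile replicate 1 with 10.28, High-fertile replicate 2 with 10.02, Sub-fertile replicate 4 with 9.30 and High-fertile replicate 3 with 9.23. The poor libraries were Sub-fertile replicate 3 with 6.41, High-fertile replicate 5 with 5.60, Infertile replicate 4 with 5.25, Sub-fertile replicate 1 with 5.10 and Infertile replicate 5 with 4.75. Values given for single libraries below follow these 2 orders. The choice is close at its upper edge, where the highest library left out, Sub-fertile replicate 2, scored 9.09 against 9.23 for the last one taken. At the lower edge the gap was wider, with 7.53 in Sub-fertile replicate 5, left out, against 6.41 in Sub-fertile replicate 3. Normalising the libraries by TMM, or scoring them on ACTA2, TAGLN, MYLK and LMOD1 in place of the 4 genes, chose the same 10 libraries in the same groups.

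**Figure D1:**
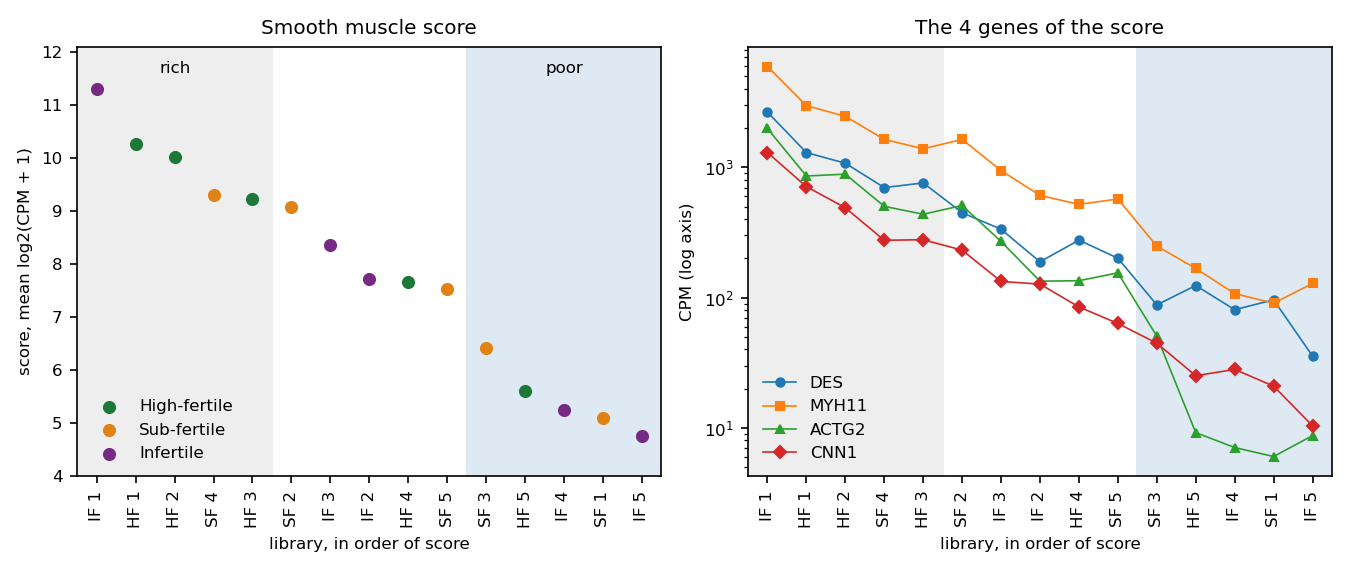
Smooth muscle score, the mean log2(CPM + 1) of DES, MYH11, ACTG2 and CNN1, in each of the 15 libraries in order of the score (left), and the CPM of these 4 genes on a log axis in the same order (right; HF, High-fertile; SF, Sub-fertile; IF, Infertile; the number is the replicate; grey and blue bands mark the rich and poor libraries). The score falls from 11.30 in Infertile replicate 1 to 4.75 in Infertile replicate 5, with the 5 rich libraries at 9.23 or above and the 5 poor libraries at 6.41 or below.

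The genes that made the score differed widely between these biopsies. ACTG2, the gamma actin of visceral smooth muscle, stood at 1988, 858, 887, 502 and 436 CPM in the rich libraries and at 50.5, 9.19, 7.06, 6.02 and 8.71 CPM in the poor ones. Its highest and lowest libraries thus lay 330-fold apart, and among the poor libraries Sub-fertile replicate 3 stood above the others. MYH11, the smooth muscle myosin heavy chain, averaged 2884 CPM in rich and 148 CPM in poor libraries. DES, the intermediate filament desmin, averaged 1298 and 84.9 CPM, and CNN1, the actin-binding protein calponin, 611 and 25.8 CPM. Together the 4 genes took between 0.0183% and 1.19% of a library's counts.

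Among the 16671 genes with a mean of at least 1 CPM over the 15 libraries, large differences were few and lay mostly on the side of the rich libraries, while small ones lay on both. The values of all 5 rich libraries lay above those of all 5 poor libraries for 465 genes (2.79% of the genes compared) and below them for 576 genes (3.46%). Genes that were also at least 2-fold apart on the log2(CPM + 1) scale numbered 248 in the higher direction (1.49%) and 23 in the lower (0.138%). Of the 248, 92 were at least 4-fold and 28 at least 8-fold higher in the rich libraries, while 2 of the 23 were at least 4-fold lower. The median difference over all genes was -0.06, and 43.5% of genes had a positive one. The libraries of the middle entered these calls only through the filter on the mean CPM. They had a median between the 2 group means for 235 of the 248 genes and for 19 of the 23. The score placed them in the middle, so these counts describe the ordering and are no separate check. Of the 248 genes, 60 belong to 1 of the 31 gene lists described below, and of the 23 none does. Of all 16671 genes compared, 610 are in a list, so that none of 23 is near the share over all genes. Several lists hold smooth muscle genes of the same kind as the score, so the 60 in part restate the sorting. Among the libraries of the set of 8 alone, 253 genes were higher and 35 lower by the same rule. Of these, 214 were among the 248 and 10 among the 23. Without the set of 2 the genes numbered 243 and 28, of which 237 and 19 were among the 248 and the 23. Without High-fertile replicate 5, a poor library, they numbered 293 (1.76%) and 231 (1.39%), so the balance between the 2 directions depended on that library. All these settings hold fewer libraries, with which ranges come apart more easily. Each count of list members apart is to be read against the shares over all genes, 2.79% higher and 3.46% lower, or 1.49% and 0.138% with at least 2-fold.

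**Figure D2:**
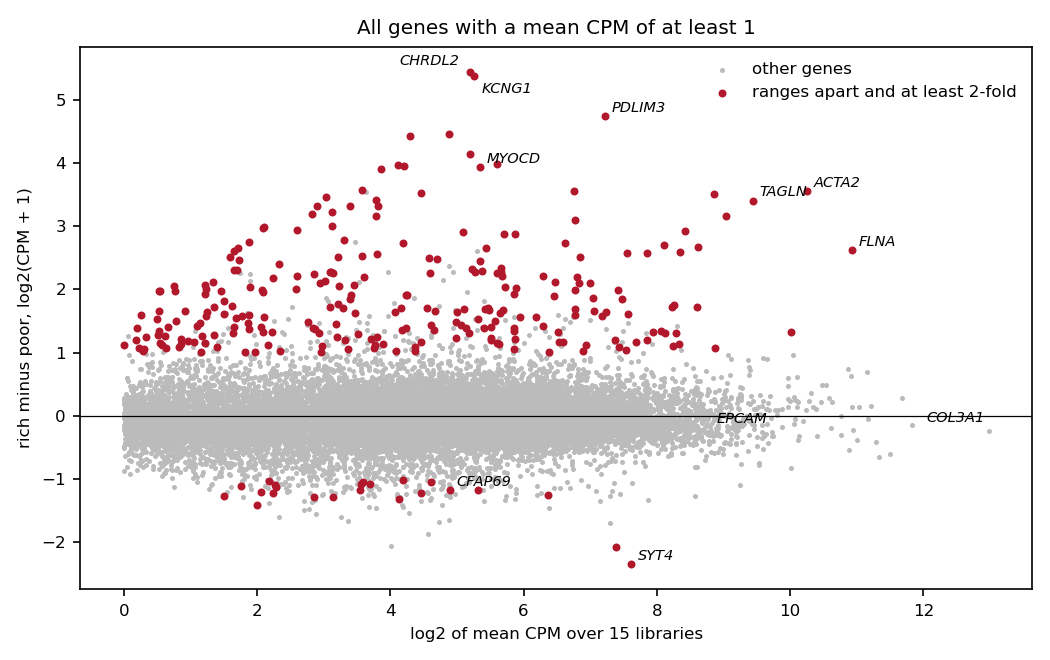
Difference between rich and poor libraries in mean log2(CPM + 1), vertical axis, against the log2 of the mean CPM over 15 libraries, horizontal axis, for 16671 genes. Red points mark the 248 higher and 23 lower genes whose ranges do not overlap and whose difference is at least 1. The higher genes spread over the whole range of levels up to FLNA and ACTA2, while COL3A1 and EPCAM lie near 0.

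The contractile apparatus was higher in the rich libraries almost throughout. All 30 genes of this list had a positive difference, 24 of the 30 had ranges apart (against 2.79% of all genes), 21 were at least 2-fold higher, and the median difference was 1.86 against -0.06 over all genes. These genes are of the same kind as those of the score, so the count describes how far the sorting carries over and does not stand on its own. With the 4 genes of the score they took 1.45% to 4.79% of the counts in the rich and 0.339% to 0.540% in the poor libraries.

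ACTA2, the alpha actin of smooth muscle, stood at 5415, 2948, 2127, 1344 and 1486 CPM in the rich libraries and at 268, 203, 159, 183 and 186 CPM in the poor ones. The lowest rich library was thus well above the highest poor one, and Infertile replicate 1 stood above every other library. The difference was 3.56 ± 0.39 (SE, 5 libraries a group) on the log2(CPM + 1) scale. ACTA2, ACTG2, ACTA1 and ACTC1 are near-identical actins, and the sources used here do not say how reads shared between them were counted.

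MYLK, the kinase that phosphorylates the myosin light chain and so starts contraction, had 2038, 1024, 889, 523 and 485 CPM in rich and 93.8, 86.1, 62.8, 98.0 and 46.8 CPM in poor libraries. The groups did not overlap, and the difference was 3.51 ± 0.42 (SE). TAGLN, the actin-bundling protein transgelin, averaged 1548 CPM in rich and 130 CPM in poor libraries, and LMOD1, which nucleates actin filaments in smooth muscle, 246 and 39.3 CPM. PDLIM3, a PDZ and LIM protein that binds alpha-actinin, had the largest difference of the list, with 687, 399, 294, 169 and 182 CPM in rich and 18.5, 9.66, 6.38, 11.9 and 8.24 CPM in poor libraries. Its difference was 4.74 ± 0.44 (SE).

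The thin filament tropomyosins TPM1 and TPM2 differed by 2.93 ± 0.34 and 3.16 ± 0.37 (SE). The light chain MYL9 differed by 2.67 ± 0.34, and the actin cross-linker FLNA, at 2177 to 7514 CPM in rich and 347 to 795 CPM in poor libraries, by 2.62 ± 0.39 (SE). On the length-scaled FPKM values, which allow genes to be compared, the actin ACTA2 averaged 1835 FPKM and transgelin 1233 FPKM in the rich libraries, against 269 FPKM for MYLK. The 6 genes of the list that overlapped were HSPB6, HSPB7, MYOM1, MYH10, PPP1R12B and PPP1R12A. The nonmuscle myosin heavy chain MYH10, present in many cell types, had 121 to 178 CPM in rich and 101 to 254 CPM in poor libraries. The myosin phosphatase targeting subunits PPP1R12A and PPP1R12B differed by 0.79 ± 0.37 and 0.27 ± 0.18 (SE), both with overlapping groups, whereas PPP1R14A, an inhibitor of that phosphatase in smooth muscle, was apart with 1.35 ± 0.34.

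**Figure D3:**
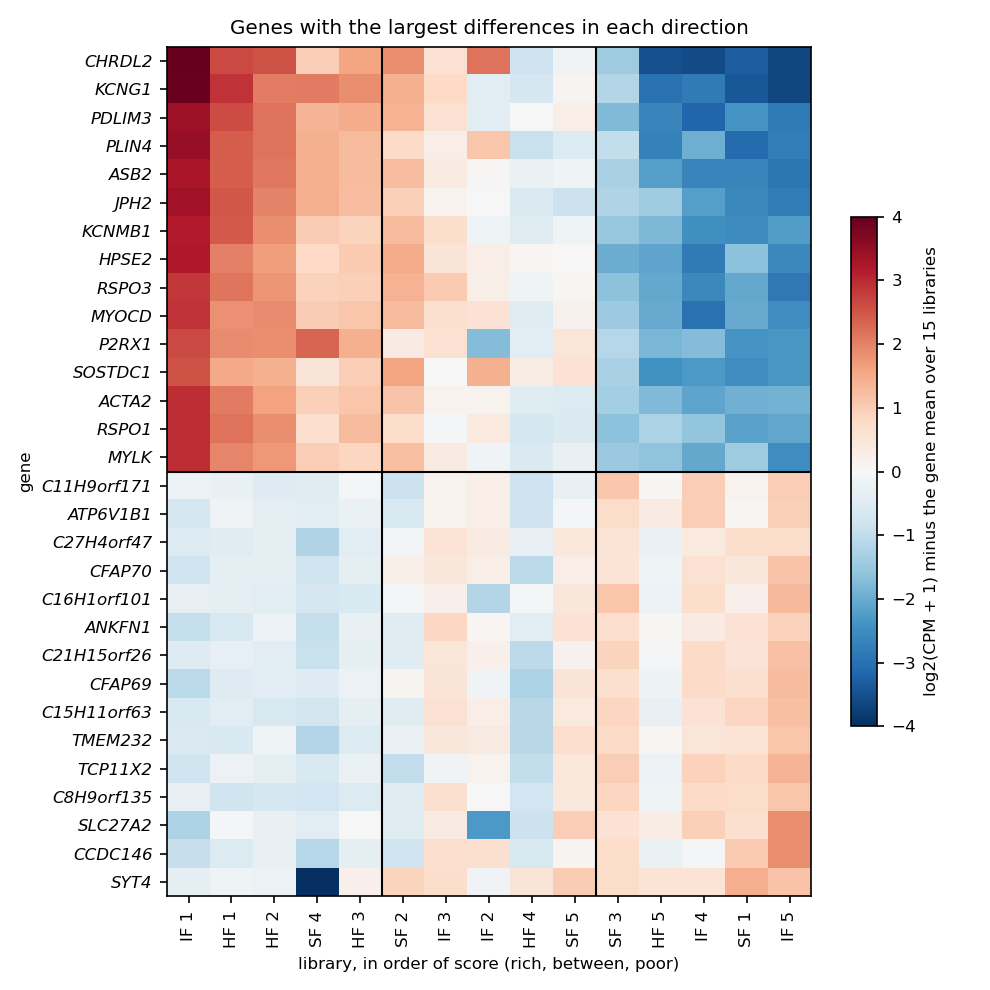
log2(CPM + 1) minus the gene's mean over the 15 libraries, as colour, for the 15 named genes with the largest differences upward and the 15 downward (rows), with libraries in order of the score in columns (HF, High-fertile; SF, Sub-fertile; IF, Infertile). The upper genes, CHRDL2 to MYLK, run from red in the rich to blue in the poor libraries, the lower genes run the other way and more faintly, and values beyond 4 in either direction take the end colour, as SYT4 in Sub-fertile replicate 4 does.

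Among the regulators of the contractile genes the coactivator stood apart most clearly. MYOCD, myocardin, had 170, 81.2, 83.3, 45.3 and 48.8 CPM in rich and 7.38, 4.70, 1.91, 4.73 and 3.095 CPM in poor libraries. The difference was 3.93 ± 0.42 (SE), and the libraries of the middle ran from 15.5 to 54.1 CPM, so that the highest of them stood above 2 rich libraries. SRF, the DNA-binding partner of myocardin, was also apart but by less, at 1.21 ± 0.27 (SE), with 50.4 to 106 CPM in rich and 20.04 to 40.6 CPM in poor libraries. MKL1, a related coactivator, differed by 0.72 ± 0.30 and LPP, a LIM protein of smooth muscle adhesions, by 1.53 ± 0.27 (SE). In all, 4 of the 15 measured genes of this list were apart and higher (2.79% of all genes) and 1, MEF2A, was apart and lower by a small amount (-0.23 ± 0.05, SE), and the list's median was 0.26. SRF did not keep its ranges apart once levels were centred within fertility class.

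Genes of calcium handling and membrane excitability followed in part, with 9 of 26 measured members apart and higher (2.79% of all genes), 8 of them at least 2-fold (1.49%), and a median of 0.73. KCNMB1, the regulatory subunit that smooth muscle adds to the large-conductance calcium-activated potassium channel, had 224, 137, 90.4, 49.6 and 45.3 CPM in rich and 7.85, 6.25, 3.55, 3.37 and 4.34 CPM in poor libraries. Each rich library thus lay above each poor one, and the difference was 3.98 ± 0.47 (SE). The pore subunit of that channel, KCNMA1, differed by 0.63 ± 0.18 and its groups overlapped, at 205 to 362 CPM in rich and 151 to 243 CPM in poor libraries.

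The calcium channel subunit CACNA1H differed by 1.12 ± 0.30 and was apart, while CACNA1C, the pore of the L-type channel, differed by 1.04 ± 0.41 (SE) with overlap. PLN, phospholamban, which restrains the calcium pump of the sarcoplasmic reticulum, had 35.6 to 78.2 CPM in rich and 12.3 to 25.5 CPM in poor libraries. MRVI1, a target of cGMP-dependent kinase at the calcium store, and the calcium-activated chloride channel ANO1 differed by 1.90 ± 0.41 and 1.44 ± 0.25 (SE). The store calcium sensor STIM1 differed by 1.16 ± 0.18 (SE), and the small GTPase gene RASL12 by 1.91 ± 0.36.

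Outside the lists, JPH2, a junctophilin that ties the surface membrane to the calcium store, had 184, 98.3, 70.5, 47.6 and 41.1 CPM in rich and 6.86, 5.70, 2.89, 1.97 and 1.598 CPM in poor libraries. P2RX1, an ATP-gated cation channel of smooth muscle, had 51.5, 29.8, 29.2, 41.1 and 21.6 CPM in rich and 2.78, 1.33, 1.54, 0.631 and 0.674 CPM in poor libraries. Both genes were apart, by 4.14 ± 0.50 for JPH2 and by 3.91 ± 0.31 (SE) for P2RX1. KCNG1, a silent modifier subunit of voltage-gated potassium channels, differed by 5.37 ± 0.58 (SE). It ran from 49.2 to 211 CPM in rich libraries, from 7.65 to 36.2 CPM in the middle and from 0.0998 to 5.07 CPM in poor libraries, without overlap between any 2 neighbouring groups.

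The receptors that bring on or hold back uterine contraction were mixed. Of 22 measured members, 4 were apart and higher (2.79% of all genes), 3 of them at least 2-fold (1.49%), and the median was 0.27. PTGFR, the receptor for prostaglandin F2-alpha, had 26.2, 13.9, 8.50, 2.48 and 5.38 CPM in rich and 1.18, 0.123, 0.0798, 0.105 and 0.0998 CPM in poor libraries. The poor libraries other than Sub-fertile replicate 3 thus held only a few counts, and the difference of 2.94 ± 0.54 (SE) understates the change of a gene this low. PTGER3, a receptor for prostaglandin E2, differed by 2.25 ± 0.51 and the muscarinic receptor CHRM3 by 1.43 ± 0.29 (SE).

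OXTR, the oxytocin receptor, had 63.9, 39.5, 24.6, 4.15 and 6.94 CPM in rich and 8.11, 14.7, 3.53, 3.29 and 1.40 CPM in poor libraries. The groups overlapped, because the last 2 rich libraries lay below the first 2 poor ones, and the difference was 1.74 ± 0.84 (SE). The highest OXTR of all 15 libraries, 178 CPM, was in Infertile replicate 2, a library of the middle. The gap junction gene GJA1, at 125 to 242 CPM in rich and 92.7 to 884 CPM in poor libraries, and the prostaglandin synthase PTGS2, at 11.5 to 127 and 39.8 to 96.1 CPM, overlapped as well.

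Genes that anchor muscle cells to their matrix had 8 of 25 measured members apart and higher (2.79% of all genes), 6 of them at least 2-fold (1.49%), with a median of 0.39. LIMS2, an adaptor of the integrin-linked kinase complex, had 184, 123, 73.3, 69.0 and 68.2 CPM in rich and 20.7, 35.7, 25.1, 11.8 and 10.3 CPM in poor libraries. Its partners ILK and PARVA were apart with smaller differences of 0.82 ± 0.18 and 0.68 ± 0.19 (SE). The integrin subunits ITGA7 and ITGA8 differed by 1.38 ± 0.35 and 1.504 ± 0.36, and ITGA8 only just cleared the overlap, with 37.6 CPM in its lowest rich and 37.4 CPM in its highest poor library. DTNA, the dystrophin-associated protein dystrobrevin, differed by 2.26 ± 0.50 (SE), though not without overlap once levels were centred within class. Dystrophin itself, DMD, had 327 to 541 CPM in rich and 302 to 534 CPM in poor libraries.

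Among matrix genes 1 of 20 fibrillar collagen genes and none of 27 elastic fibre and basement membrane genes was apart, near the 2.79% of all genes. The 1 was COL12A1, a collagen that coats fibrils, with 854, 445, 424, 269 and 345 CPM in rich and 108, 133, 110, 197 and 117 CPM in poor libraries, a difference of 1.73 ± 0.32 (SE). The main fibrillar collagens COL1A1 and COL3A1 differed by 0.16 ± 0.45 and -0.24 ± 0.38 (SE) and overlapped. Of the 27 elastic fibre and basement membrane genes, 23 had a positive difference and the median was 0.49. LTBP1, which tethers latent TGF-beta to the matrix, had 156 to 423 CPM in rich and 66.3 to 176 CPM in poor libraries, and the microfibril gene MFAP4 had 99.99 to 337 and 25.3 to 157 CPM.

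**Figure D4:**
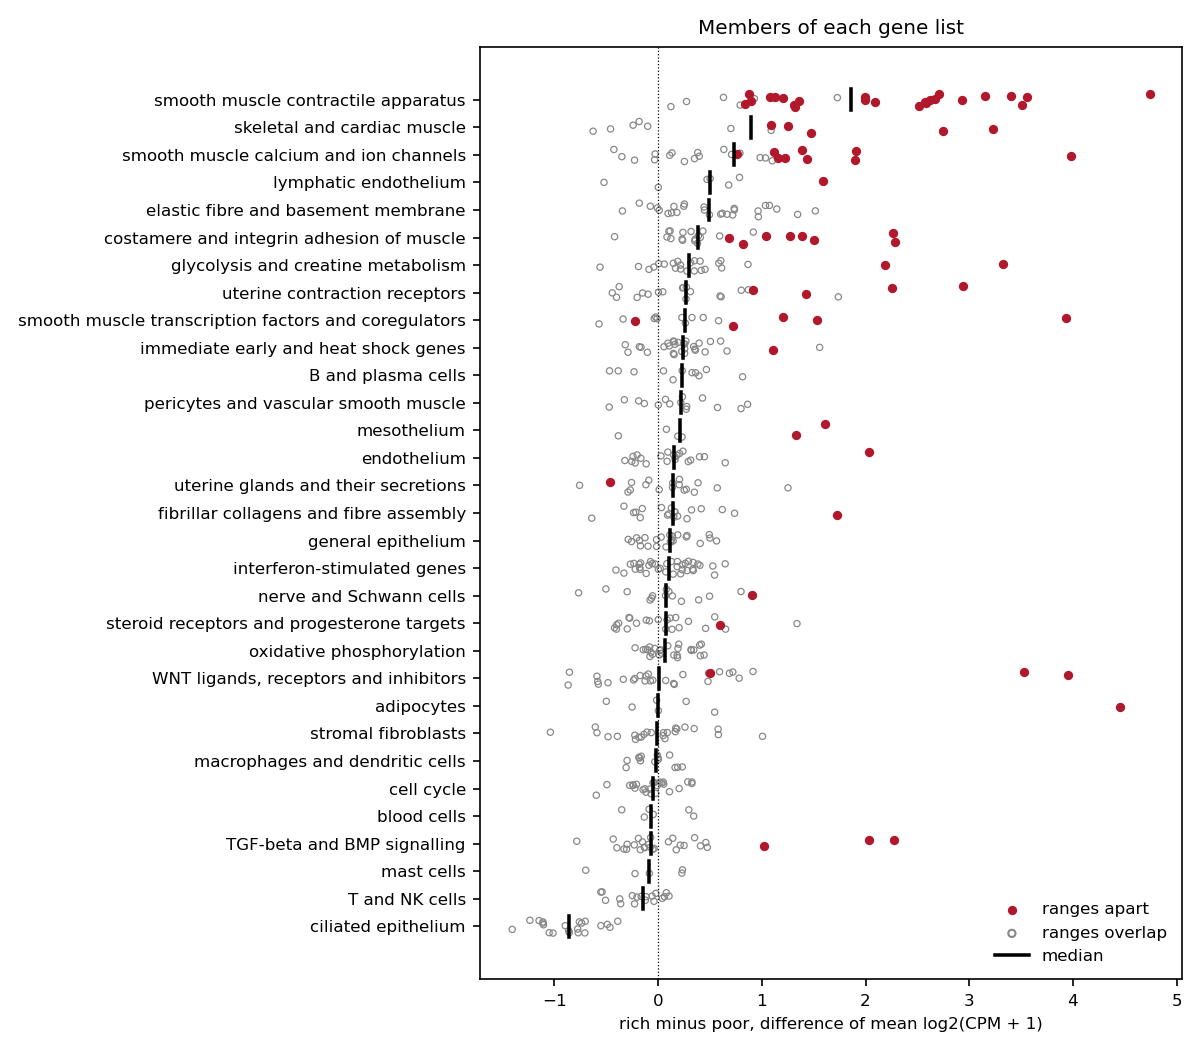
Difference between rich and poor libraries in mean log2(CPM + 1) for every measured member of the 31 gene lists, 1 point a gene and 1 row a list, ordered by the list's median (bar). Red points have ranges that do not overlap. The contractile apparatus has a median of 1.86 with 24 of 30 points in red, and the ciliated epithelium list has a median of -0.86 with all 21 points below 0 and none in red.

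The 15 named genes with the largest differences upward included 4 secreted proteins known to act on BMP or WNT signals, CHRDL2, RSPO3, RSPO1 and SOSTDC1. CHRDL2, a chordin-like protein that binds BMPs, had 206, 77.0, 71.0, 23.4 and 35.7 CPM in rich and 3.61, 0.0817, 0.0399, 0.263 and 0 CPM in poor libraries. A count of 0 in Infertile replicate 5 allows up to 0.0749 CPM, taking 3 counts as the limit and covering counting error only. The groups were far apart, with a difference of 5.45 ± 0.67 (SE), the largest of the named genes outside the score, and Sub-fertile replicate 3 stood above the other poor libraries.

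RSPO3 and RSPO1, R-spondins that amplify WNT signals, were both apart. RSPO3 had 74.4, 45.4, 34.8, 18.9 and 19.4 CPM in rich and 2.40, 1.59, 0.758, 1.58 and 0.449 CPM in poor libraries. RSPO1 had 98.7, 57.6, 46.7, 19.6 and 30.5 CPM in rich and 3.18, 4.37, 3.35, 1.95 and 2.10 CPM in poor libraries. Their differences were 3.95 ± 0.43 and 3.53 ± 0.42 (SE), and the table lists RSPO3 under 2 entries, between which its reads may be divided. SOSTDC1, a secreted antagonist of BMP and WNT signals, differed by 3.57 ± 0.40 (SE), with 9.93 to 43.8 CPM in rich and 0.368 to 2.07 CPM in poor libraries.

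The fixed lists of these pathways had medians near 0. Of 30 measured WNT genes 3 were apart and higher (2.79% of all genes), the R-spondins and the coreceptor LRP5 (0.50 ± 0.17, SE), and the median was 0.01 with 15 differences above and 15 below 0. Of 29 TGF-beta and BMP genes 3 were apart and higher (2.79% of all genes), with a median of -0.07. These were the ligand BMP7 (2.28 ± 0.51, SE), the adhesion-associated LIM protein TGFB1I1 (2.03 ± 0.38) and INHBA, which encodes the activin A subunit (1.02 ± 0.22).

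Some genes usually tied to other tissues were also apart. PLIN4, a coat protein of lipid droplets, had 151, 72.8, 60.0, 35.8 and 31.9 CPM in rich and 5.92, 1.10, 2.51, 0.605 and 0.998 CPM in poor libraries. It was the only 1 of 7 measured genes of the adipocyte list that was apart (2.79% of all genes apart and higher). The other measured genes overlapped, among them LPL, with means of 2.13 CPM in rich and 1.20 CPM in poor libraries. ADIPOQ, LEP, FABP4, CIDEC and CD36 fell below the filter of 1 CPM and averaged 0.102 CPM or less over the 15 libraries. Of the skeletal and cardiac muscle list, 5 of 12 measured members were apart and higher (2.79% of all genes), with a median of 0.89.

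The 5 were the actins ACTC1 (3.23 ± 0.48, SE) and ACTA1 (2.75 ± 0.40), the Z-disc protein ACTN2 (1.47 ± 0.39), the oxygen store MB (1.25 ± 0.32) and the calcium store protein CASQ1 (1.09 ± 0.20). MYH1, MYH2, CKM, MYOD1 and MYOG, which are among the list members below the filter of 1 CPM, averaged 0.118 CPM or less over the 15 libraries. ASB2, a ubiquitin ligase subunit that targets filamins, differed by 4.43 ± 0.46 (SE), with 22.5 to 92.0 CPM in rich and 0.325 to 3.02 CPM in poor libraries. HPSE2, a relative of heparanase without its enzyme activity, differed by 3.97 ± 0.48.

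Genes of energy metabolism included 2 that were apart. PYGM, the glycogen phosphorylase of muscle, had 42.4, 15.7, 17.1, 10.04 and 8.72 CPM in rich and 1.23, 0.735, 0.758, 0.526 and 0.349 CPM in poor libraries. CKB, the brain-type creatine kinase, differed by 2.19 ± 0.42 (SE), with 117 to 391 CPM in rich and 22.2 to 65.0 CPM in poor libraries. These were the 2 members apart (2.79% of all genes) of 24 measured genes of glycolysis and creatine metabolism, whose median was 0.30. None of 26 oxidative phosphorylation genes was apart, with a median of 0.06. GAPDH, often used as a reference gene, had 365, 379, 255, 205 and 242 CPM in rich and 197, 205, 176, 114 and 106 CPM in poor libraries, which overlapped at their edge, while beta actin, ACTB, was apart with 2059 to 3272 CPM in rich and 1392 to 1747 CPM in poor libraries. Of 30 immediate early and heat shock genes, HSPB1, a small heat shock protein that binds actin, was the only 1 apart (1.10 ± 0.23, SE), near the 2.79% of all genes.

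Cell types that the biopsies could also hold were checked with lists of their own markers. None of 15 pericyte and vascular smooth muscle genes was apart, and the median was 0.22. As only 2.79% of all genes were apart and higher and 3.46% apart and lower, a count of 0 in this list or the next is near the background. RGS5, a marker of pericytes, had 158, 190, 164, 149 and 204 CPM in rich and 124, 338, 188, 192 and 157 CPM in poor libraries. The groups overlapped, with High-fertile replicate 5 highest among these 10, and NOTCH3, a receptor of mural cells, overlapped too at 107 to 159 and 68.0 to 183 CPM. The summed level of the list was 1483 to 2036 CPM in rich and 1092 to 2362 CPM in poor libraries.

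Of 22 endothelial genes, 1 was apart, near the 2.79% of all genes. It was MMRN1, a multimerin found in platelets and endothelium (2.03 ± 0.41, SE). PECAM1, the general endothelial adhesion molecule, had 68.2 to 111 CPM in rich and 70.4 to 114 CPM in poor libraries. Of 7 lymphatic genes, the chemokine CCL21 alone was apart (2.79% of all genes), with 4.37, 4.96, 3.20, 0.382 and 0.641 CPM in rich and 0.189, 0.0408, 0, 0 and 0 CPM in poor libraries. Those 3 counts of 0 allow up to 0.0598, 0.0789 and 0.0749 CPM, and CCL21 overlapped once levels were centred within class. CCL21 reached the filter of 1 CPM only through the rich libraries, where it averaged 2.71 CPM. Its median in the middle was 0.799 CPM and its mean in the poor libraries 0.0459 CPM. Its place among the 7 measured genes thus favoured a higher value in the rich libraries. The lymphatic transcription factor PROX1 overlapped at 2.51 to 7.86 and 1.14 to 6.79 CPM.

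None of 24 stromal fibroblast genes was apart, and 12 differences lay above and 12 below 0. PDGFRA, a receptor of stromal fibroblasts, had 236, 297, 233, 205 and 306 CPM in rich and 179, 409, 266, 491 and 228 CPM in poor libraries. The poor libraries spread more widely than the rich ones here, as they did for the summed level of the list, 4646 to 11966 CPM against 4867 to 6996 CPM. MFAP5, a microfibril protein, had the largest difference of the list at -1.04 ± 0.81 (SE), since 3 poor libraries held 54.4 to 71.6 CPM and the other 2 held 6.84 and 4.52 CPM.

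None of 24 epithelial genes was apart either, with a median of 0.12. EPCAM, an adhesion molecule of all epithelia, had 313, 316, 420, 534 and 401 CPM in rich and 533, 335, 442, 279 and 759 CPM in poor libraries. Its groups overlapped, and CDH1, E-cadherin, differed by 0.03 ± 0.38 (SE). Of 18 measured gland genes, 1 was apart, CTSS, a cathepsin that immune cells also express, which was lower (-0.46 ± 0.16, SE). The gland transcription factor FOXA2 overlapped at 24.9 to 53.2 and 15.4 to 47.4 CPM. None of 14 macrophage and dendritic cell genes, 18 T and NK cell genes, 11 B and plasma cell genes, 5 mast cell genes or 6 blood cell genes was apart. The B cell gene MS4A1 stood at 20.9 CPM in High-fertile replicate 1 and at 0.160 to 0.641 CPM in the other 9 of the 10 libraries.

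Of 15 nerve and Schwann cell genes, MBP, a myelin protein, was apart (0.90 ± 0.28, SE) but not after centring within class. Of 6 mesothelial genes, KRT5 (1.33 ± 0.40, SE) and PKHD1L1 (1.61 ± 0.30) were apart (2.79% of all genes), while the mesothelial marker MSLN overlapped at 2.46 to 10.4 and 1.63 to 5.64 CPM. KRT5 was highest, at 41.0 CPM, in Infertile replicate 2, a library of the middle.

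Of the lists of steroid receptors with progesterone targets, interferon-stimulated genes and the cell cycle, few or no members were apart, near the 2.79% higher and 3.46% lower of all genes. Of 23 genes of the steroid list, 1 was apart by a small amount, the receptor chaperone FKBP4 (0.59 ± 0.11, SE), and the median was 0.07. PGR, the progesterone receptor, had 11.9, 9.03, 9.29, 6.52 and 10.04 CPM in rich and 14.5, 6.94, 10.3, 3.21 and 1.85 CPM in poor libraries, and ESR1, an estrogen receptor, 13.5 to 21.1 and 4.79 to 25.2 CPM. Both overlapped, and PGR was highest at 52.1 CPM in Infertile replicate 2. None of 36 interferon-stimulated genes was apart, with a median of 0.11. ISG15, the ubiquitin-like protein that the conceptus signal raises, had 9.82, 96.8, 47.9, 90.5 and 4.11 CPM in rich and 14.0, 65.4, 25.4, 4.92 and 15.6 CPM in poor libraries, so it varied widely within each group. None of 26 cell cycle genes was apart, with a median of -0.05.

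Genes of motile cilia had lower means in the rich libraries. All 21 measured genes of the ciliated epithelium list had a negative difference, with a median of -0.86 against -0.06 over all genes, yet none had ranges apart (against 3.46% of all genes). CCDC39, which sets the repeat of the axoneme, had 14.98, 19.2, 18.6, 12.3 and 19.9 CPM in rich and 47.5, 15.4, 37.2, 48.0 and 85.1 CPM in poor libraries. For most of these genes the overlap came from High-fertile replicate 5 alone. Its mean level over the list was 3.67 on the log2(CPM + 1) scale, against 4.67 to 5.20 in the other 4 poor libraries and 3.33 to 4.18 in the rich ones. FOXJ1, the transcription factor of motile cilia, overlapped at 29.1 to 62.6 CPM in rich and 39.0 to 112 CPM in poor libraries. Here Sub-fertile replicate 1, at 42.1 CPM, also lay within the range of the rich libraries.

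Without High-fertile replicate 5, 17 of the 21 ciliated genes had ranges apart, and the median became -1.12. That library is the one that held most of the overlap, and ranges come apart more easily with fewer libraries, so the 17 are a description only. The share of all genes apart and lower in this setting is not given here. Genes at least 2-fold lower and apart numbered 231 (1.39% of all genes) in place of 23 (0.138%). The higher ones numbered 293 (1.76%) in place of 248 (1.49%), so that 55.9% of such genes were higher in place of 91.5%. High-fertile replicate 5 also had the highest level of macrophage and dendritic cell genes among the poor libraries, at 4.09 against 2.95 to 3.27. The libraries of the middle held ciliated list levels of 3.19 to 4.80, so that a middling score went with both low and high ciliated levels.

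The lower genes themselves included the axonemal genes CFAP69 and CFAP70. CFAP69 had 11.9, 18.2, 19.3, 18.4 and 22.2 CPM in rich and 41.7, 23.1, 45.4, 42.0 and 65.2 CPM in poor libraries, a difference of -1.18 ± 0.27 (SE). CFAP70 differed by -1.06 ± 0.23, CCDC146 by -1.32 ± 0.42 and TMEM232 by -1.22 ± 0.23 (SE). SLC27A2, a very long chain fatty acid ligase, had 2.27 to 7.05 CPM in rich and 8.78 to 27.7 CPM in poor libraries. ATP6V1B1, a subunit of the vacuolar proton pump, differed by -0.99 ± 0.20 (SE).

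SYT4, a synaptotagmin of secretory vesicles, had the largest difference downward among genes with a symbol, -2.35 ± 1.35 (SE). Its values were 107, 124, 120, 0.255 and 162 CPM in rich and 231, 204, 204, 386 and 307 CPM in poor libraries. The groups were apart, but Sub-fertile replicate 4 held almost none of this message, and without that library the difference was -1.02. The genes CCDC146, TMEM232, C15H11orf63 and C11H9orf171 were no longer apart after centring within fertility class, and TCP11X2 was no longer apart under TMM scaling or on FPKM.

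Fertility class was not used to sort the libraries, so the score could be tested between classes. It stood at 10.28, 10.02, 9.23, 7.66 and 5.60 in the High-fertile, at 5.10, 9.09, 6.41, 9.30 and 7.53 in the Sub-fertile and at 11.30, 7.72, 8.36, 5.25 and 4.75 in the Infertile libraries. All 3 classes thus held both rich and poor libraries, and their ranges overlapped. The means were 8.56 ± 1.94, 7.49 ± 1.78 and 7.48 ± 2.64 (SD, n = 5 each). By exact two-sided permutation tests, the Sub-fertile minus High-fertile difference of -1.07 had p = 0.349 (adjusted p = 0.726 over 3 pairs). The Infertile minus High-fertile difference of -1.08 had an exact permutation p = 0.484 (adjusted p = 0.726), and the Infertile minus Sub-fertile difference of -0.009 had p = 1. With 5 against 5 the smallest p these tests allow is 0.00794. Single libraries moved these differences by more than 1.5 times. Sub-fertile minus High-fertile became -0.64 without High-fertile replicate 1, -0.71 without High-fertile replicate 2, -1.81 without High-fertile replicate 5, and -0.48 when Sub-fertile replicate 1 was left out. Infertile minus High-fertile became -0.65, -0.72 and -1.82 without the same 3 High-fertile libraries, -2.04 without Infertile replicate 1, -0.52 without Infertile replicate 4 and -0.40 without Infertile replicate 5.

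**Figure D5:**
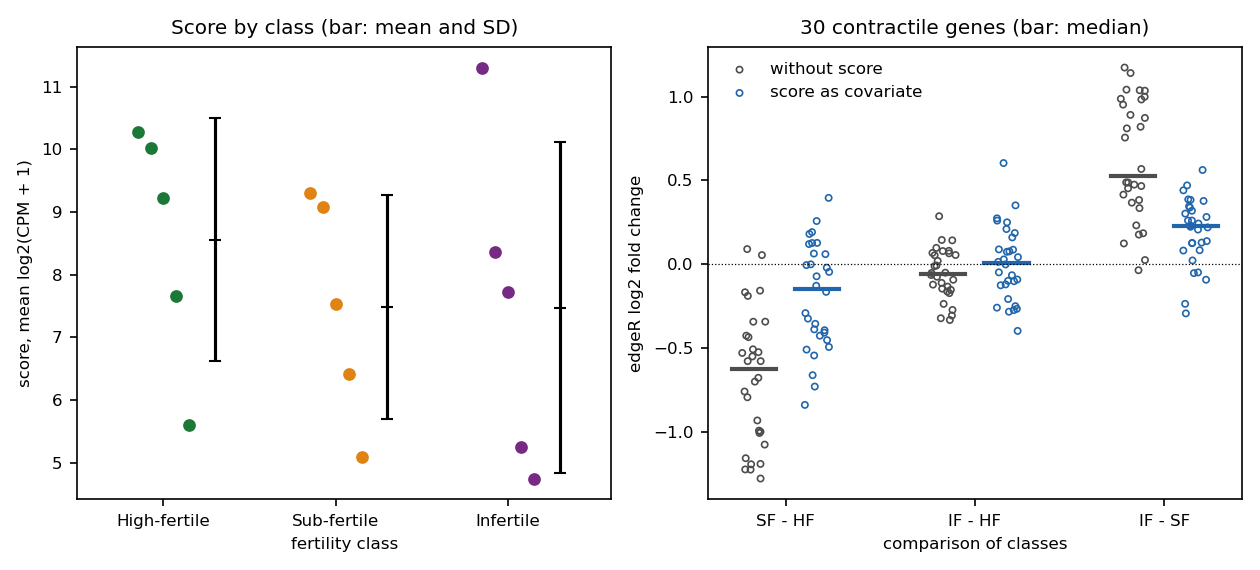
Smooth muscle score by fertility class, 1 point a library with the class mean and SD (n = 5 each), and, beside it, the edgeR log2 fold changes of the 30 contractile genes in the 3 class comparisons without the score and with it as covariate, 1 point a gene with a bar at the median (HF, High-fertile; SF, Sub-fertile; IF, Infertile). The High-fertile mean of 8.56 lies above the Sub-fertile mean of 7.49 and the Infertile mean of 7.48, and all 3 ranges overlap. Against High-fertile, the medians of the contractile genes without and with the score are -0.63 and -0.15 for Sub-fertile. They are -0.06 and 0.007 for Infertile against High-fertile, and 0.53 and 0.23 for Infertile against Sub-fertile. The score averages log2 levels and the fold changes are fitted to counts, so the panels show different measures.

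The classes were then compared gene by gene with the score as a covariate and without it. In a fit of edgeR across 19962 genes and all 15 libraries, no gene passed an adjusted p of 0.05 in any of the 3 comparisons in either fit. With the score and 1 library left out, edgeR called 1 gene between Sub-fertile and High-fertile libraries without High-fertile replicate 3, and 4 without Infertile replicate 5, all 4 lower in the Sub-fertile libraries. Between Sub-fertile and High-fertile libraries, 2738 genes had an unadjusted p under 0.05 without the score (13.7%) and 1833 with it (9.18%), with 1669 in both. Between Infertile and High-fertile libraries, which shares the High-fertile libraries with the first, the numbers were 2201 (11.0%) and 1658 (8.31%), with 1426 in both. Between Infertile and Sub-fertile libraries they were 525 (2.63%) and 578 (2.9%), with 474 in both. DESeq2 with the same design and the score called 16, 50 and 14 genes in the 3 comparisons.

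These numbers at an unadjusted p moved more with single libraries than with the score. For Sub-fertile against High-fertile, the 1833 became 503 when High-fertile replicate 5 was left out and 1204 when High-fertile replicate 3 was. Leaving out Sub-fertile replicates 2, 5, 3 and 4, each in turn, gave 681, 723, 3057 and 3537. For Infertile against High-fertile, the 1658 became 692 without High-fertile replicate 5, 1088 without Infertile replicate 3 and 2596 without Infertile replicate 2. For Infertile against Sub-fertile, the 578 became 1114 without Sub-fertile replicate 3, 1054 without Infertile replicate 3, 928 without Infertile replicate 5 and 381 without Infertile replicate 2. With the 3 sets by pseudogene levels added beside the score, the numbers were 537, 1636 and 427. Because class was partly tied to set, this fit cannot fully separate them. Why the 1833 became 537 was not tested.

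The contractile genes are of the kind the score is made of, so that a smaller class difference in them with the score follows from the choice of genes, and their values in the 2 fits are a description that supports nothing. Their median log2 fold change between Sub-fertile and High-fertile libraries was -0.63 without and -0.15 with the score. It was -0.06 and 0.007 between Infertile and High-fertile libraries, and 0.53 and 0.23 between Infertile and Sub-fertile libraries. These fold changes, fitted to counts, are not the same measure as the score, a mean of log2 levels. For the 4 genes of the score, the edgeR medians without the score were -1.06, 0.09 and 1.11 in these comparisons. The differences in mean score were -1.07, -1.08 and -0.009. None of the 30 had an unadjusted p under 0.05 without the score, against 13.7%, 11.0% and 2.63% of all genes in the 3 comparisons. With it 3 of the 30 did between Sub-fertile and High-fertile libraries, near the 9.18% of all genes. None did in the other 2 comparisons, against 8.31% and 2.9% of all genes.

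The ciliated genes were lower on average in the rich libraries but are not of the kind the score is made of. Whether and why their class differences follow the score was not tested, so the values of these genes in the 2 fits are a description only. Neither of the 2 fits held the sets by pseudogene levels, to which class was partly tied. Their median log2 fold change was 0.54 without and 0.19 with the score between Sub-fertile and High-fertile libraries. Between Infertile and High-fertile libraries it was 0.95 and 0.64, and all 21 estimates lay above 0 in both fits. Between Infertile and Sub-fertile libraries it was 0.43 and 0.44, and all 21 again lay above 0 in both. Those with an unadjusted p under 0.05 in edgeR numbered 4, 14 and 0 of 21 in these comparisons without the score. With it they numbered 0, 3 and 1. The shares over all genes were 13.7%, 11.0% and 2.63% without the score and 9.18%, 8.31% and 2.9% with it.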

How the data were processed

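Per the labels, RNA of 1 biopsy from each of 15 heifers was sequenced from stranded mRNA libraries. The authors deposited whole-number counts per gene and FPKM values per gene in 1 table. The submitters' processing notes name FastQC, Subread, featureCounts, edgeR and the genome build UMD3.1, with versions not given in the sources used here. Of 32671 entries, 20070 symbols matched the RefSeq gene table given, used for names only, and 27 entries carry names that look like dates. No column of values was left without a sample.

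From the deposited counts, CPM on library totals was computed, and levels are log2(CPM + 1), which understates differences of low genes. Genes with a mean of at least 1 CPM over the 15 libraries were compared. A gene was called apart when the ranges of the 5 rich and 5 poor libraries did not overlap, and counted as 2-fold when the means also differed by at least 1 on the log2 scale. SE is that of the difference of 2 means of 5 libraries. Deposited FPKM were used only to compare genes and as an alternative. Class comparisons used edgeR 4.0.16 (quasi-likelihood, TMM, Benjamini-Hochberg) in R 4.3.3 on counts of all 15 libraries with the score as covariate, with DESeq2 1.42.0 as alternative, and exact permutation tests in scipy 1.17.1. The code was tested on simulated data.

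Named genes were the 4 of the score, the 15 largest differences in each direction among genes apart and with a symbol, the 2 largest of each list, and a set of marker genes. Other list members named in the text were picked once their values were known, to describe their list. The members and lists were chosen with earlier results of these data known. Replicates are heifers, numbered in accession order. No sequence is shown.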

Additional observations from a re-analysis of the deposited data

Results flagged for a closer look

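In groups of 5 libraries, 285 sets of values were checked for a single library far from the other 4, and 16 (5.61%) had one, where chance alone gives about 1 in 20. All values here are log2(CPM + 1), and for lists the mean over the members.

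Among the poor libraries, Sub-fertile replicate 3 stood above the others for 5 genes that were higher in rich libraries, or part of the score. It was at 5.69 for ACTG2, at 2.20 for CHRDL2, at 1.62 for SOSTDC1, at 1.12 for PTGFR and at 0.249 for CCL21. This library also had the highest score of the 5 poor ones, 6.41, next to the edge of the choice.

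High-fertile replicate 5, also poor, was the highest for the macrophage and dendritic cell list at 4.09 and the lowest for C8H9orf135 at 1.61. Sub-fertile replicate 1 was the lowest poor library for the gland list at 4.99, and Infertile replicate 5 the lowest for the steroid receptor and progesterone target list at 5.10.

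Among the rich libraries, Sub-fertile replicate 4 was far below the others for SYT4, at 0.327 against 6.75 in the next library, and for C27H4orf47 at 2.97. High-fertile replicate 1 was the highest for the B cell gene MS4A1 at 4.45 and the lowest for ESR1 at 3.85. High-fertile replicate 2 was the highest for SPP1 at 3.68, High-fertile replicate 3 for the blood cell list at 2.91, and Infertile replicate 1 for KRT5 at 3.12.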

How the results depend on the processing

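The number of genes at least 2-fold higher in rich libraries, 248, stayed within 1.5 times in every setting tried. It lay between 175 (mean CPM of at least 5) and 364 (4 against 4 libraries), and between 212 and 326 when 1 library was left out in turn. The number of lower genes, 23, did not. They numbered 38 with a pseudocount of 0.25, 15 with a mean CPM of at least 5, 13 on FPKM, 61 with 4 against 4 libraries, 106 at 1.5-fold and 4 with levels centred within class. Among the 8 libraries of the largest set by pseudogene levels, a setting chosen after seeing the data, they numbered 35, of which 10 were among the 23. Leaving out 1 library gave 21 to 231 lower genes, with 35 without High-fertile replicate 2, 41 without High-fertile replicate 3 and 231 without High-fertile replicate 5. At 1.5-fold 76.3% of the calls were higher, against 91.5%. On the class scores, leaving out 1 library gave -1.81 to -0.48 for Sub-fertile minus High-fertile and -2.04 to -0.40 for Infertile minus High-fertile. The Infertile minus Sub-fertile difference of -0.009 became 0.00311 under TMM and 0.23 with the other marker genes, and ran from -0.97 to 0.67 without single libraries. In the class fits with the score, DESeq2 called 16, 50 and 14 genes where edgeR called none, and edgeR called 0 to 4 for Sub-fertile against High-fertile without single libraries, 1 without High-fertile replicate 3 and 4 without Infertile replicate 5, and none in the other 2 comparisons. The cause of these changes was not tested. No paired analysis was made, because each library came from a different heifer. Depth limits the lowest genes, where a count of 0 allows up to 0.0477 to 0.0789 CPM.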

Other observations

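Among the 248 genes that were apart and at least 2-fold higher in the rich libraries were 2 entries for microRNA genes, MIR143 and MIR145, picked out after their values were seen. The mature microRNAs of these genes are well known in smooth muscle. MIR145 averaged 3.53 CPM in rich and 0.497 CPM in poor libraries, a difference of 1.498 ± 0.27 (SE, 5 libraries a group) on the log2(CPM + 1) scale. MIR143 averaged 2.06 and 0.312 CPM, a difference of 1.11 ± 0.30 (SE). Libraries of polyadenylated RNA hold the longer precursor transcripts and not the mature microRNAs, so these values say nothing of the mature forms.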
